A study of Rattus norvegicus with 12 samples.

Results

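The late part of storage was examined by comparing RBCs from rat whole blood kept for 20 days (20 d) with those kept for 10 days (10 d), across all genes with enough counts. The comparison used 8 of the 12 libraries of the series, 4 of 20 d and 4 of 10 d, and the other 4 came from blood that was not stored (Cont). Of 29539 genes in the table, 8382 were tested. Every library came from wild-type male Wistar rats aged 11 weeks, whose whole blood with CPDA, an anticoagulant and preservative, stood at 4 °C for 20 days (20 d), for 10 days (10 d) or not at all (Cont) before the RBCs were purified. Libraries of total RNA were made after depletion of rRNA, and the authors counted reads per gene on the rat genome mRatBN7.2. The total counts were 67960637 to 76970267 in the 20 d libraries and 71414307 to 79472764 in the 10 d libraries, of which the 4 most abundant genes took 87.0% to 88.0% and 85.8% to 87.1%. This left 8834882 to 9791182 counts per library for all other genes in 20 d and 10146544 to 10662690 in 10 d. The blood of each rat was divided over the 3 conditions, so that the conditions share rats by design. Which replicate number stands for which rat is not given in the sources used here, and the main test took the libraries as unpaired, so that its p-values measure the spread between libraries.

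Mature mammalian RBCs have no nucleus and make no new transcripts. The RNA of a purified RBC fraction is held mainly by reticulocytes, the young red cells that still keep ribosomes, mitochondria and a set of stable mRNAs, and such a fraction can also hold RNA of leukocytes and platelets that washing leaves behind. In bulk samples such as these, fewer cells of a type and less RNA per cell cannot be told apart, and each level is a share of the RNA in its library and not an amount per cell. Globin transcripts led every group. *Hba-a2*, an alpha globin gene, and *Hbb-b1*, a beta globin gene, had the highest TPM (a level corrected for length) in 20 d, and neither passed the test between 20 d and 10 d (log2 fold change −0.11, SE 0.08, edgeR adjusted p = 0.368 for *Hba-a2*, and 0.18, SE 0.11, edgeR adjusted p = 0.290 for *Hbb-b1*).

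More genes fell than rose between 10 d and 20 d, and the falls were larger. At an adjusted p under 0.05 in edgeR's quasi-likelihood test, 1055 genes (12.6% of the genes tested) were lower in 20 d and 283 genes (3.38%) were higher. The genes that fell had a median log2 fold change of −1.77, and 831 of them changed more than 2-fold. The genes that rose had a median of 0.31, and 6 of them changed more than 2-fold. A fit blocked on replicate number called 1292 genes lower and 508 higher. With the 8 libraries of 20 d and 10 d alone, 7246 genes passed the filter, and 779 of them were lower and 435 higher. Of the 1055 genes lower in the main fit, 849 were among those 7246, and the others were tested only with Cont in the filter. Over all genes tested the median was −0.08. All 4 libraries of 20 d lay below all 4 of 10 d in 1126 genes (13.4%) and above them in 525 genes (6.26%). At least 1 count was found for 12619 to 12897 genes in the 20 d libraries and for 13567 to 14271 genes in the 10 d libraries, a mean difference of −1213 genes (two-sided exact permutation test, p = 0.0286, the smallest p that 4 against 4 libraries allow). At least 10 counts were found for 6626 to 6765 genes in 20 d and 7543 to 7928 in 10 d. Numbers of detected genes depend on depth, for which they were not corrected. The counts left outside the 4 most abundant genes were lower in every 20 d library than in any 10 d library. As the plot of change against level shows, the rises were small and lay among abundant genes, and the falls spread over the low levels.

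**Figure D1:**
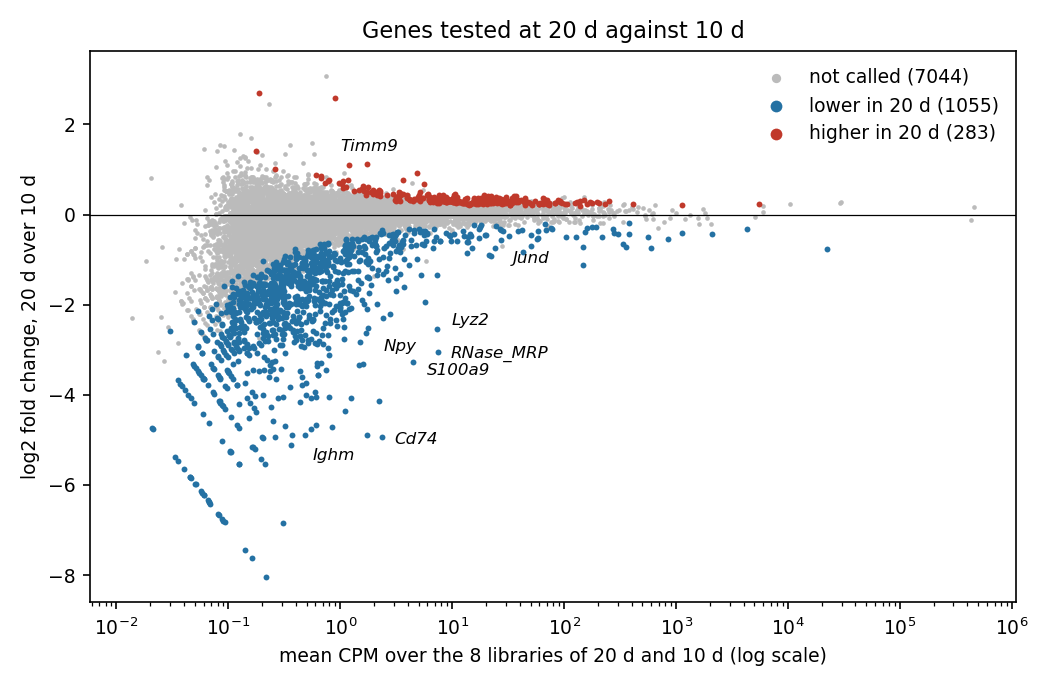
Log2 fold change of 20 d over 10 d for each of the 8382 genes tested (y axis) against the mean CPM over the 8 libraries (x axis, log scale). The 283 genes higher in 20 d (red) lie mostly at high levels, the 1055 genes lower in 20 d (blue) reach −8.05 at low levels, and grey points are the 7044 genes not called.

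The number of rises depended on the scaling and on single libraries more than the number of falls did. CPM (counts relative to library size) was scaled by TMM, which assumes that most genes do not change. Rises were 21.2% of all calls with TMM, 6.96% with library size alone (68 rises and 909 falls), 34.3% with the size factors of DESeq2 (508 and 971) and 36.9% with TMM computed without the 4 most abundant genes (556 and 952). Each of the 283 genes that rose kept a positive log2 fold change under these settings. This could hardly be otherwise, as the median shift from the main fit was −0.03 to 0.06 and the smallest rise was 0.20. With library size alone, 67 of the 283 kept their call. The rises numbered 120 without 10 d replicate 2, 144 without 20 d replicate 3, 155 without 10 d replicate 3, 181 without 20 d replicate 4, 462 without Cont replicate 3 and 532 without Cont replicate 1. The falls numbered 797 to 1107 when any library was left out.

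Genes that rose were abundant and genes that fell were mostly not. When the genes tested were divided into 5 groups of equal size by their mean CPM over the 8 libraries, 230 of the 283 rises lay in the highest group, where 13.7% of genes rose and 5.78% fell. In the lowest group, up to 0.181 CPM, 0.0596% rose and 16.2% fell. A small difference can pass the test only where counts are high. The filter on low counts used all 12 libraries, so that a gene with few counts in 20 d could be tested through Cont or 10 d. This favours falls, and the share of falls at low levels depends in part on this filter. The lowest group had a median log2 fold change of −0.74. By exon length, 4.83% of genes in the longest of 5 such groups rose and 17.6% fell, against 3.10% and 9.54% in the shortest.

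**Figure D2:**
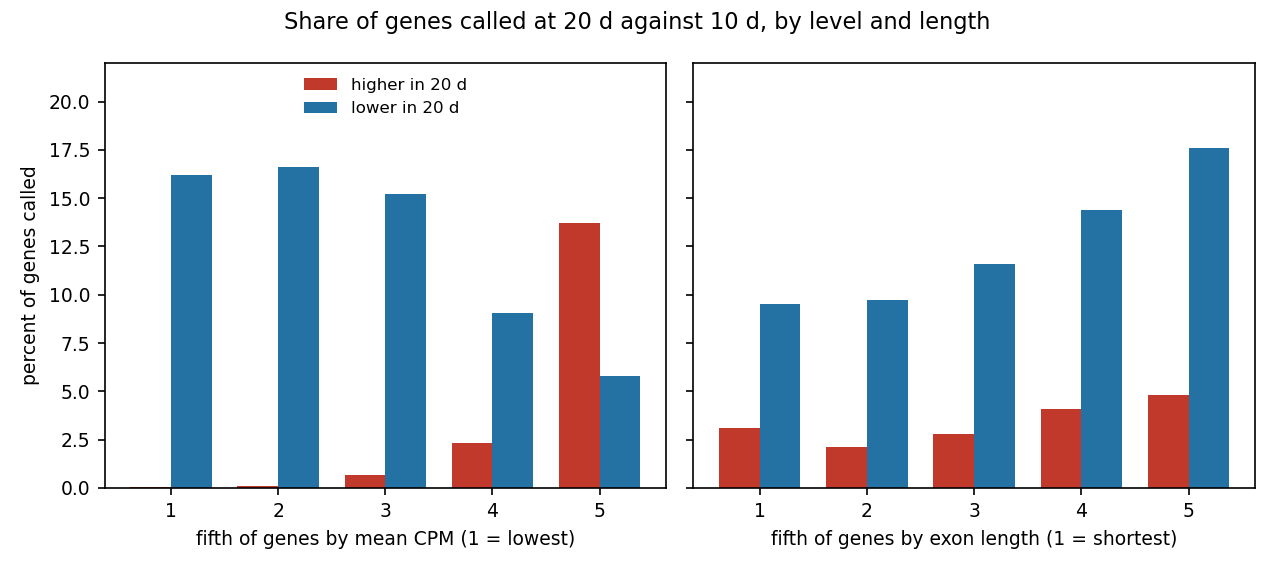
Percent of genes called higher (red) or lower (blue) at 20 d against 10 d in each of 5 groups of the genes tested, by mean CPM over the 8 libraries and by exon length. Rises reach 13.7% in the group of highest level and 0.0596% in the lowest, while falls are at 5.78% and 16.2% there.

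The MHC class II and B cell lists had the largest median falls among gene lists with at least 9 tested members. MHC class II molecules present peptides on the surface of B cells and other antigen presenting cells, and the invariant chain encoded by *Cd74* guides them through the cell. Of 9 class II genes tested, 9 fell, with a median log2 fold change of −4.67, against 12.6% lower and a median of −0.08 over all genes tested. *Cd74* (ENSRNOG00000018735, chromosome 18, 54256778 to 54266003, mRatBN7.2) had 0.165, 0.120, 0.124 and 0.170 CPM in 20 d, against 4.85, 5.09, 4.08 and 4.07 CPM in 10 d (log2 fold change −4.94, SE 0.18, edgeR adjusted p = 4.01e-12). *RT1-Da*, the alpha chain of the rat class II molecule RT1.D, had 0.0301, 0.120, 0.171 and 0.0850 CPM in 20 d, against 2.42, 2.12, 1.58 and 2.32 CPM in 10 d. The groups were far apart in both genes. *RT1-Db1*, the beta chain of the same molecule, fell by 4.08 log2 units (SE 0.30, edgeR adjusted p = 8.70e-08) and *RT1-Bb*, a beta chain of RT1.B, fell by 4.72 (SE 0.28, edgeR adjusted p = 3.21e-09). *Ciita*, the transactivator that switches on class II genes, had 0, 2, 2 and 2 counts in 20 d, against 42, 52, 60 and 48 counts in 10 d (log2 fold change −4.90, SE 0.46, edgeR adjusted p = 1.68e-06).

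The promoters of class II genes are shown because these genes fell together, and because class II promoters are known for a conserved array of boxes that ends in a Y box. In RefSeq promoters of the rat assembly GRCr8, which hold 250 bases before and 50 after the start of a gene, 7 of the 9 class II genes had an entry. The letters CCAAT or their reverse complement ATTGG, the core of the Y box, were in 7 of these 7 promoters and in 37.5% of all 33469 promoters. GCAAC followed by ATTGG after 24 to 28 bases, on either strand, was in 5 of the 7 and in 0.194% of all promoters, and this search was chosen after the sequences were seen. A match describes letters and is not evidence of a bound factor. For 4 of these genes, 75 bases in the direction of transcription follow, 5′ to 3′, with GCAAC and ATTGG in capitals.
RT1-Da: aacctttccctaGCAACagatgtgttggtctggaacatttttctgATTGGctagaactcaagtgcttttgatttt
RT1-Db1: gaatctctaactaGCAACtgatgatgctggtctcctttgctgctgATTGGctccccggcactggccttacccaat
RT1-Ba: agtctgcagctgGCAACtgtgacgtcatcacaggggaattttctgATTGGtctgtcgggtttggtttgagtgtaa
RT1-DOb: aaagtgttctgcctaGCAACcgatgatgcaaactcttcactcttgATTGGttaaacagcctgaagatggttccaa
In the order of the lines, they lie at chr20:4515321-4515395 (plus strand), chr20:4560213-4560287 (minus strand), chr20:4576969-4577043 (plus strand) and chr20:4627577-4627651 (minus strand) of GRCr8.

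B cell markers fell in each of the 16 genes tested, of 20 in the table, against 12.6% of all genes tested. Their median log2 fold change was −4.42. *Ighm* (ENSRNOG00000034190, chromosome 6, 132329269 to 133053426), the heavy chain of immunoglobulin M, had 9, 8, 3 and 10 counts in 20 d, against 217, 245, 208 and 280 counts in 10 d. *Pou2af1*, a coactivator of B cells, had 0 counts over the 20 d libraries and 46 over those of 10 d, and *Tnfrsf13c*, the receptor for the survival factor BAFF, had 0 and 38. With 0 taken as 3 counts over the group, these genes were at least 14.5-fold and 12-fold lower in 20 d, and the median of the list was then −3.95. *Ms4a1*, the gene of CD20, had 2 counts in 20 d and 91 in 10 d, a ratio of 10 d over 20 d of 43.1 (exact 95% interval 11.6 to 362, counting error only). The B cell markers thus came close to the limit of detection in 20 d. The list summed to 0.421 to 0.840 CPM in 20 d and 9.51 to 12.3 CPM in 10 d, and the class II list to 0.406 to 0.720 and 12.4 to 14.9 CPM.

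Platelet transcripts fell in 20 d after a higher level in 10 d. Of 14 platelet genes tested 13 fell (92.9%, against 12.6% of all genes tested), with a median log2 fold change of −2.39. *Npy* (ENSRNOG00000046449, chromosome 4, 78881264 to 78888495), the gene of neuropeptide Y that rat platelets are known to carry, had 0.662, 0.330, 0.465 and 0.454 CPM in 20 d, against 2.46, 4.17, 2.79 and 2.37 CPM in 10 d. *Itga2b*, a subunit of the fibrinogen receptor of platelets, fell by 2.95 log2 units (SE 0.35, edgeR adjusted p = 1.81e-05). *Gp1ba*, a subunit of the von Willebrand factor receptor, had 26, 19, 29 and 22 counts in 20 d and 37, 40, 32 and 26 in 10 d, and did not pass the test (log2 fold change −0.41, SE 0.28, edgeR adjusted p = 0.368). The list summed to 1.68 to 2.87 CPM in Cont, 7.92 to 11.5 CPM in 10 d and 1.59 to 2.24 CPM in 20 d. The range in 20 d overlapped that of Cont.

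Neutrophil, monocyte and T cell markers fell too, and 12.6% of all genes tested were lower in 20 d. Of 16 neutrophil genes 12 fell, with a median log2 fold change of −2.08, of 6 monocyte and macrophage genes 4 fell (median −1.99), and of 11 T cell genes 8 fell (median −2.82). Of 2 NK cell genes 1 passed the test, *Klrk1*, with 2 counts in 20 d and 15 in 10 d (edgeR adjusted p = 0.0497), and this call was lost in 17 of the alternatives, the replicate block and DESeq2 among them. *S100a9*, which encodes a subunit of calprotectin, had 0.511, 0.855, 1.21 and 0.737 CPM in 20 d, against 3.68, 10.1, 10.6 and 7.78 CPM in 10 d. *Lyz2*, the lysozyme gene of myeloid cells, had 1.22, 2.04, 2.74 and 2.45 CPM in 20 d, against 3.53, 17.3, 17.2 and 11.4 CPM in 10 d. In both genes replicate 1 of 10 d was the lowest of its group, and it was still above every 20 d library. The neutrophil list summed to 3.58 to 8.87 CPM in 20 d and 13.7 to 41.6 CPM in 10 d. The T cell list summed to 0.155 to 0.241 CPM in 20 d and 1.35 to 1.76 CPM in 10 d. *Ccr7*, a homing receptor of naive T cells, had 2 counts in 20 d and 110 in 10 d, a ratio of 10 d over 20 d of 52.2 (exact 95% interval 14.1 to 436). Of 3 eosinophil and basophil genes 2 fell, and the remaining gene, *Alox15*, is a lipoxygenase that reticulocytes also make (1199.5, 1124, 1082 and 1197 CPM in 20 d, against 1333, 1232, 1182 and 1192 CPM in 10 d). Of 20 pan-leukocyte genes 17 fell, among them *Ptprc*, the gene of CD45, with 1.44, 2.80, 3.35 and 1.93 CPM in 20 d, against 7.08, 10.1, 10.5 and 8.62 CPM in 10 d. The pan-leukocyte list had a median log2 fold change of −1.98 and summed to 51.5 to 53.6 CPM in 20 d and 68.9 to 82.3 CPM in 10 d. This sum depends on its most abundant members, as 3 of the 20 lay in the highest of the 5 groups by level, and 1 of those 3 fell.

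**Figure D3:**
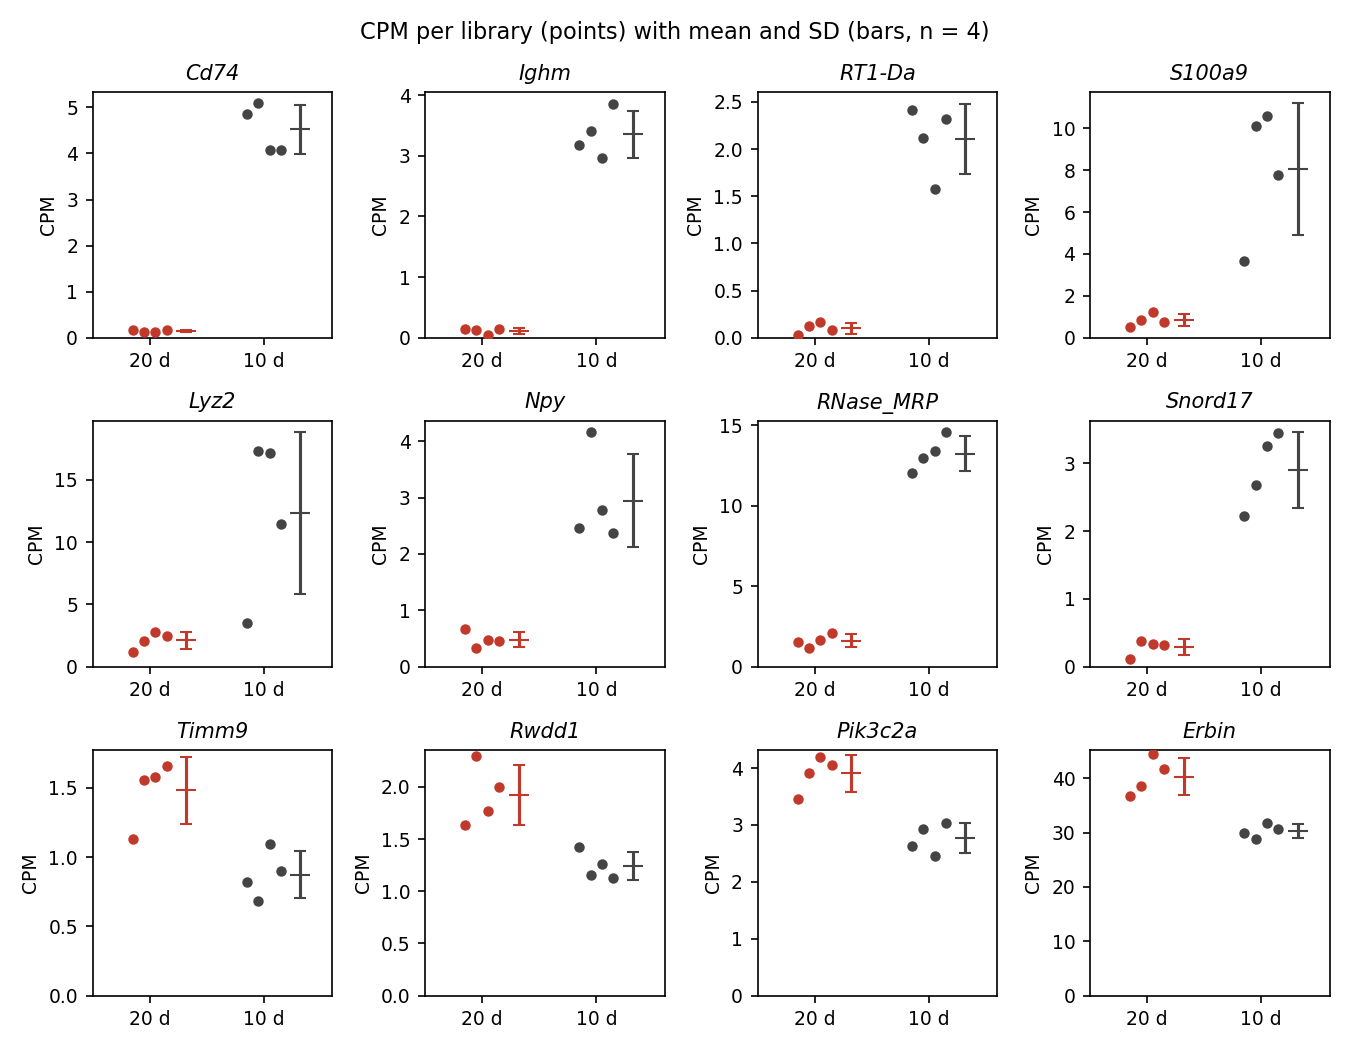
CPM per library of 12 genes in 20 d and 10 d, with points for libraries and the mean and SD of 4 libraries. *Cd74*, *Ighm* and *RT1-Da* are close to 0 in the 20 d libraries, and *Timm9*, *Rwdd1*, *Pik3c2a* and *Erbin* are higher in 20 d without overlap.

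Immediate early genes, which are switched on within minutes of a signal and whose mRNAs are short-lived, fell as well. Of 15 tested 13 fell (86.7%, against 12.6% of all genes tested), with a median log2 fold change of −1.97. *Fosl1* (0.69) and *Nr4a1* (−0.95) did not pass the test. *Jun* had 5, 8, 2 and 4 counts in 20 d, against 58, 119, 74 and 64 counts in 10 d (log2 fold change −3.94, SE 0.36, edgeR adjusted p = 1.11e-06). *Fos* had 2, 19, 12 and 10 counts in 20 d, against 21, 116, 83 and 103 counts in 10 d (log2 fold change −2.81, SE 0.50, edgeR adjusted p = 0.000962). Replicate 1 was the lowest of both groups in *Fos*. *Jund*, another member of the AP-1 family, had 18.6, 23.6, 22.3 and 23.0 CPM in 20 d, against 31.7, 36.4, 32.2 and 28.5 CPM in 10 d (log2 fold change −0.56, SE 0.11, edgeR adjusted p = 0.00163). Of 16 genes of inflammatory cytokines and NF-kB signalling 10 fell (62.5%, median −2.02). *Nfkbia*, the inhibitor of NF-kB, was at −2.79 and *Tnfaip3*, a deubiquitinase that dampens this pathway, at −3.29. Of 33 actin cytoskeleton genes 18 fell (54.5%), of 21 lysosome genes 10 (47.6%) and of 31 interferon response genes 11 (35.5%). The leukocyte marker lists fell in the same libraries, and the part of those cells in these falls was not tested.

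**Figure D4:**
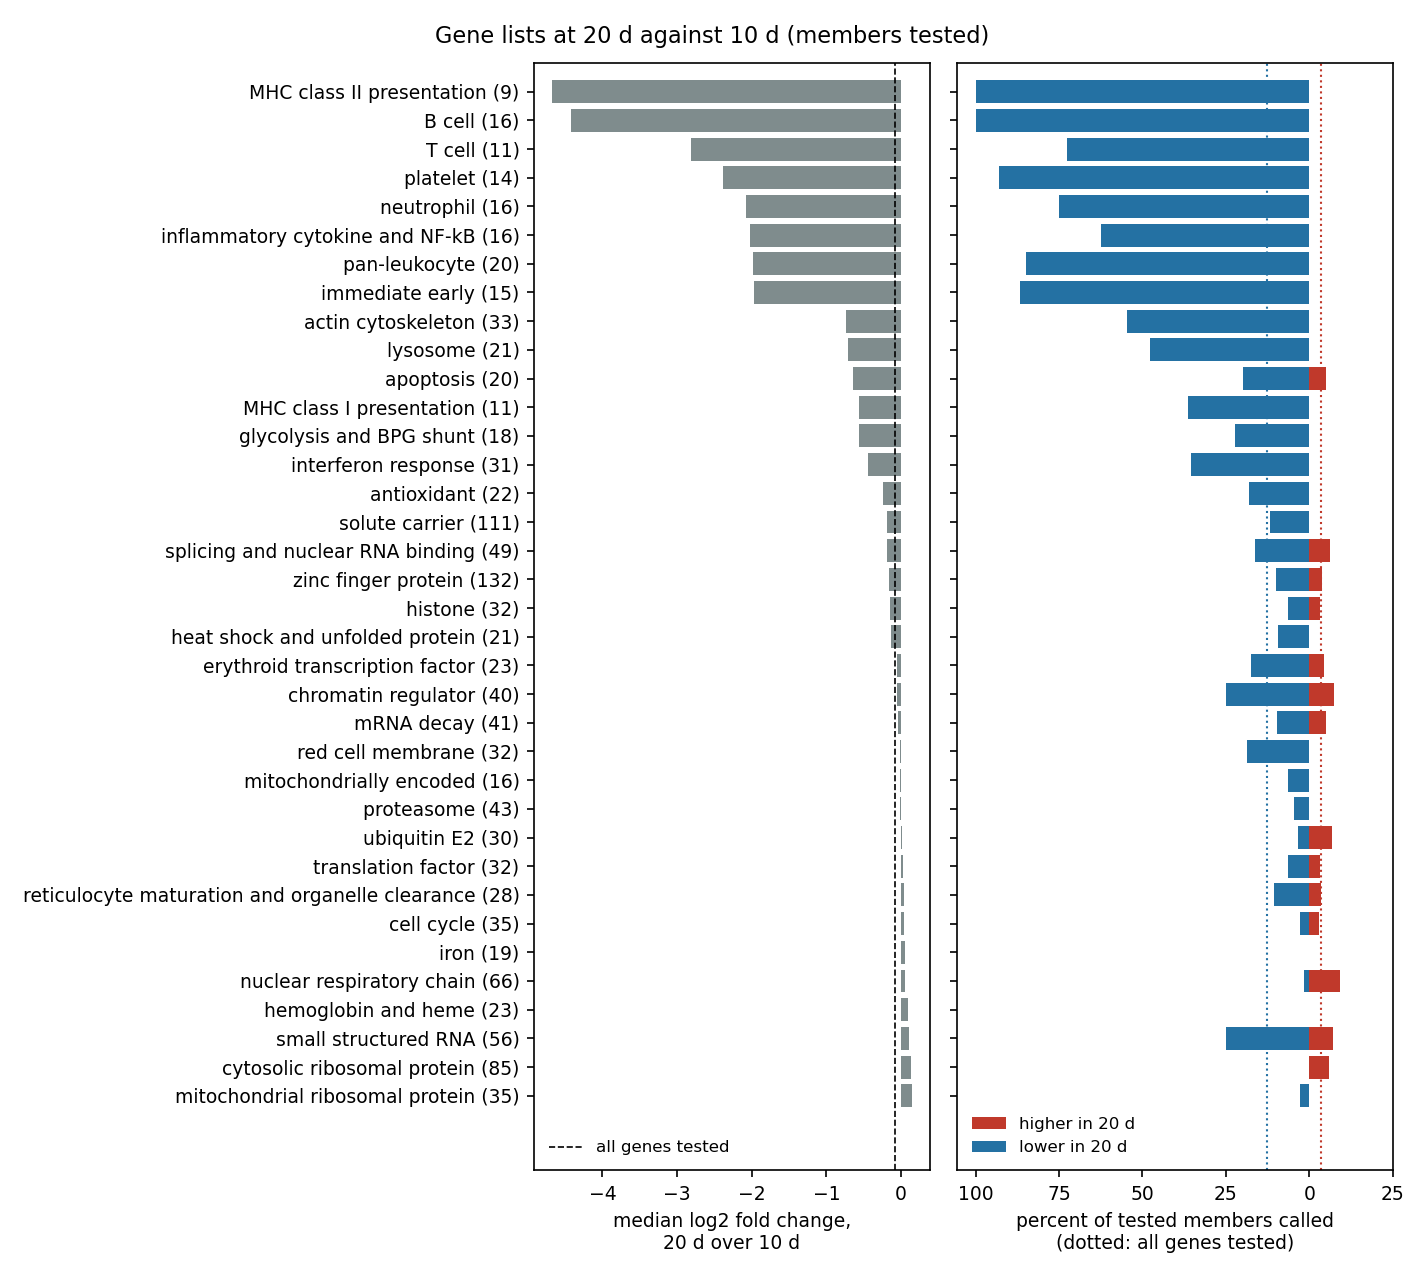
Median log2 fold change (left) and percent of tested members called (right, lower in blue and higher in red) for each gene list with at least 9 tested members. The class II and B cell lists reach 100% lower, against 12.6% of all genes tested, and the hemoglobin and iron lists have 0 calls in edgeR.

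Hemoglobin, heme and iron genes did not pass the edgeR test, and 18.8% of red cell membrane genes fell, against 12.6% of all genes tested. Of 23 hemoglobin and heme genes and 19 iron genes 0 were called in either direction by edgeR, and their median log2 fold changes were 0.09 and 0.05. At an unadjusted p under 0.05 in the same test, 0 hemoglobin and heme genes were higher and 3 lower, and 1 iron gene was higher and 1 lower. DESeq2 called 0 genes of the first list and 1 of the second, which was higher in 20 d. With the replicate block, 2 genes of each list were called, and these were lower in 20 d. Of 32 red cell membrane genes 6 fell (18.8%, against 12.6% of all genes tested) and 0 rose in edgeR (1 was higher at an unadjusted p under 0.05, 1 rose in DESeq2 and 2 with the replicate block). *Sptb* (ENSRNOG00000006911, chromosome 6, 95310326 to 95437118), the beta chain of spectrin in the membrane skeleton, had 76.7, 75, 80.0 and 136 CPM in 20 d, against 207, 189.8, 204 and 199 CPM in 10 d (log2 fold change −1.12, SE 0.20, edgeR adjusted p = 0.000960). *Slc4a1*, the anion exchanger band 3, had 397, 412, 406 and 558 CPM in 20 d, against 789, 732, 763 and 697 CPM in 10 d (log2 fold change −0.75, SE 0.12, edgeR adjusted p = 0.000486). In both genes replicate 4 of 20 d was the highest of its group, yet below every 10 d library. *Ank1*, the ankyrin that anchors spectrin to band 3, fell by 0.54 log2 units (SE 0.10, edgeR adjusted p = 0.00185) and *Epb41*, protein 4.1, by 0.49 (SE 0.10, edgeR adjusted p = 0.00348). *Epb42*, protein 4.2, had a value of 0.07 (SE 0.09, edgeR adjusted p = 0.646) and did not pass the test. *Add3* and *Tpm3* also fell, and both are widely expressed outside red cells. In the highest of the 5 groups by level, 4 of 23 red cell membrane genes fell and 0 rose. Of all genes in that group, 5.78% fell and 13.7% rose. *Ube2o*, a ubiquitin enzyme that removes ribosomes from reticulocytes, had 236, 262, 268 and 325 CPM in 20 d, against 450.3, 454, 471 and 411 CPM in 10 d (log2 fold change −0.71, SE 0.13, edgeR adjusted p = 0.00150). Of 23 erythroid transcription factors 4 fell (17.4%, against 12.6%) and 1 rose (4.35%, against 3.38%). In the highest group by level, 3 of 11 of these factors fell and 1 rose. *Zfpm1*, the GATA1 cofactor FOG1, *E2f2*, a factor of the erythroid cell cycle, *Foxo3*, a factor of the oxidative stress response, and *Bcl11a*, a repressor of fetal globin, had log2 fold changes of −0.50, −0.35, −0.43 and −1.59, and *Sox6* of 0.21 (SE 0.07, edgeR adjusted p = 0.0370).

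Small structured RNAs moved in both directions. RNase MRP processes the precursor of rRNA in the nucleolus, U3 and the snoRNAs act on that precursor, scaRNAs act in Cajal bodies, and 7SL is the cytosolic RNA of the signal recognition particle. Of 56 tested 14 fell (25%, against 12.6% of all genes tested) and 4 rose (7.14%, against 3.38%). With the replicate block 15 fell and 14 rose, and over all 8382 genes tested that fit called 1292 lower and 508 higher. In the highest of the 5 groups by level, 4 of 22 of these RNAs rose and 1 fell in edgeR. Of all genes in that group, 13.7% rose and 5.78% fell. *RNase_MRP* (ENSRNOG00000057527, chromosome 5, 57748982 to 57749253) had 1.52, 1.14, 1.66 and 2.10 CPM in 20 d, against 12, 13, 13.4 and 14.6 CPM in 10 d (log2 fold change −3.04, SE 0.14, edgeR adjusted p = 9.79e-11). *Snord17* had 0.120, 0.375, 0.341 and 0.326 CPM in 20 d, against 2.23, 2.68, 3.26 and 3.45 CPM in 10 d. The groups did not overlap in either RNA. Another tested gene, which has the RefSeq biotype RNase MRP RNA by its symbol, was not called in either direction. *U3_22* fell by 2.51 log2 units (SE 0.28, edgeR adjusted p = 1.06e-05), *SNORA74_2* by 1.99 (SE 0.18, edgeR adjusted p = 1.07e-06) and *Scarna2* by 1.6 (SE 0.23, edgeR adjusted p = 0.000136). The 14 that fell are U1, U3, U4, snoRNA, scaRNA and RNase MRP entries, which act in the nucleus, and the 4 that rose are 7SL copies, whose reads may be shared with one another. *Metazoa_SRP_2*, a 7SL copy, had 29.3, 28.9, 30.01 and 30.8 CPM in 20 d, against 24.2, 21.8, 22.3 and 23.8 CPM in 10 d (log2 fold change 0.37, SE 0.11, edgeR adjusted p = 0.0274). The far larger 7SL entry *Rn7sl1* had 32585, 31359, 31059 and 34570.0 CPM in 20 d, against 28587, 26008, 24588 and 28348 CPM in 10 d, and did not pass the test (log2 fold change 0.27, SE 0.11, edgeR adjusted p = 0.0963), but passed with the replicate block (edgeR adjusted p = 0.00907).

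The largest rises among genes with a symbol, at least 1 CPM and no overlap were small. *Timm9* (ENSRNOG00000008222, chromosome 6, 89610094 to 89622924), a chaperone of the intermembrane space of mitochondria, had 1.13, 1.56, 1.58 and 1.66 CPM in 20 d, against 0.821, 0.683, 1.09 and 0.897 CPM in 10 d (log2 fold change 0.76, SE 0.20, edgeR adjusted p = 0.0139). Its call was lost without 10 d replicate 2. *Cyp2r1*, a vitamin D 25-hydroxylase, had 1.26, 1.5, 1.30 and 1.20 CPM in 20 d, against 0.703, 0.683, 0.796 and 0.979 CPM in 10 d (log2 fold change 0.73, SE 0.20, edgeR adjusted p = 0.0165). *Chek1*, a kinase of the DNA damage checkpoint, rose by 0.68 (SE 0.21, edgeR adjusted p = 0.0325) and *Ccne2*, a cyclin of the entry into S phase, by 0.60 (SE 0.14, edgeR adjusted p = 0.00805). *Bpnt2*, *Wdr82*, *Atp5me*, *Nbn*, *Ppp3r2*, *Dis3l*, *Prdm10*, *Cmtm4* and *Dynlt3* rose by 0.47 to 0.62, at edgeR adjusted p from 0.0140 to 0.0398. Of all these, *Chek1*, *Prdm10*, *Wdr82*, *Cmtm4*, *Ppp3r2*, *Nbn*, *Dis3l* and *Bpnt2* lost their call in 5 to 8 of the alternatives.

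Of 66 nuclear genes of the respiratory chain 6 rose (9.09%, against 3.38% of all genes tested) and 1 fell. *Cox7a2l*, which helps to assemble complexes of this chain, had 29.6, 28.8, 33.3 and 30.9 CPM in 20 d, against 24.7, 21.1, 24.6 and 25.7 CPM in 10 d (log2 fold change 0.35, SE 0.08, edgeR adjusted p = 0.00807). *Atp5if1*, the inhibitor of ATP synthase, had 214, 222, 218 and 196 CPM in 20 d, against 179.7, 177, 180.1 and 168 CPM in 10 d (log2 fold change 0.27, SE 0.07, edgeR adjusted p = 0.0136). Of 85 cytosolic ribosomal protein genes 5 rose (5.88%) and 0 fell in edgeR. At an unadjusted p under 0.05, 15 were higher and 1 was lower. In the likelihood ratio test 5 rose and 1 fell, in DESeq2 13 rose and 0 fell, and with the replicate block 19 rose and 2 fell. Over all 8382 genes tested, DESeq2 called 565 higher and 1130 lower, and the replicate block 508 and 1292. *Rpl32* had 68.2, 64.2, 77.2 and 79.3 CPM in 20 d, against 53.5, 47.3, 61.2 and 61.5 CPM in 10 d (log2 fold change 0.37, SE 0.10, edgeR adjusted p = 0.0203). In the highest of the 5 groups by level, where 13.7% of all genes rose in edgeR, 5 of 61 ribosomal genes and 4 of 18 respiratory chain genes did. The ribosomal share in edgeR thus lay below that of all genes at this level, and the calls of the other tests were not divided by level. Of 16 mitochondrially encoded genes 0 rose in edgeR (1 was higher at an unadjusted p under 0.05, 1 rose in DESeq2, and 2 with the replicate block) and 1 fell, *Mt-nd1* (−0.59, SE 0.19, edgeR adjusted p = 0.0361), whose call was lost in 10 of the alternatives, the 3 other scalings among them. Of 49 genes of splicing and nuclear RNA binding 8 fell (16.3%, against 12.6% of all genes tested) and 3 rose (6.12%, against 3.38%). Among the falls were the splicing factor *Srsf2* at −1.54, the RNA helicase *Ddx5* at −1.12 and *Srrm2* of the spliceosome at −0.98. The rises were *Rbm39*, *Hnrnpm* and *Tra2b* at 0.23, 0.29 and 0.40. Of 40 chromatin regulators 10 fell (25%, against 12.6%) and 3 rose (7.5%, against 3.38%). Falls included *Kmt2d*, a histone methyltransferase, at −1.24 and *Tet3*, which oxidises methylated cytosine, at −1.33. *Ash1l*, *Kdm5a* and *Kdm6a*, which act on histone methylation, rose by 0.25, 0.28 and 0.30. In the highest group by level, 3 of 18 splicing genes rose and 3 fell, and 3 of 19 chromatin regulators rose and 3 fell. Of all genes there, 13.7% rose and 5.78% fell. *Xpo7*, an exportin of maturing erythroblasts that was chosen after its values were seen, had 277, 273, 283 and 268 CPM in 20 d, against 237, 217, 217 and 219 CPM in 10 d (log2 fold change 0.31, SE 0.06, edgeR adjusted p = 0.00276).

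Genes that changed in the second 10 days alone were those called between 10 d and 20 d, not called between Cont and 10 d, and with a difference between the intervals that was itself called in the same direction. By this rule 196 genes fell (2.34%) and 27 rose (0.322%), and with the replicate block 251 fell and 101 rose. The intervals share the 10 d libraries, so that a deviation of a 10 d library moves them in opposite directions. Without 10 d replicate 2, 114 genes fell and 2 rose in the second 10 days alone, and without 10 d replicate 3, 112 fell and 4 rose. The rises numbered 9 without 20 d replicate 3, 10 without 10 d replicate 1, 15 without 20 d replicate 2, 17 without 20 d replicate 4, 56 without Cont replicate 3 and 57 without Cont replicate 1. With library size alone 112 fell and 1 rose, and 0 of the 27 were shared. That scaling moved the median difference between the intervals over all genes to 0.18, against −0.14 with TMM.

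The 196 genes that fell in the second 10 days alone had a median log2 fold change of −2.66 between 10 d and 20 d and of 0.26 between Cont and 10 d. Of 16 B cell genes 11 belonged to them, of 9 class II genes 3, of 15 immediate early genes 5 and of 14 platelet genes 1, against 2.34% of all genes tested. Over all tested members, these lists had medians of 0.64, 1.16, −0.08 and 2.26 between Cont and 10 d, in that order. Other lists also had members in this set, among them 5 of 56 small structured RNAs, 3 of 49 splicing genes and 2 of 16 inflammatory cytokine and NF-kB genes. When the first change also had to be under 0.5 in size, 120 falls remained. *Ighm* had 3.10 ± 0.506 CPM in Cont, 3.35 ± 0.387 CPM in 10 d and 0.111 ± 0.0439 CPM in 20 d (SD, n = 4 each). *Gvin1*, an interferon-inducible large GTPase, had 3.8 ± 0.553 CPM in Cont, 4.2 ± 0.573 CPM in 10 d and 0.235 ± 0.0789 CPM in 20 d. In both genes the levels of Cont and 10 d lay within the spread of the libraries. *Pik3cd*, the PI3-kinase delta of leukocytes, fell by 2.32 (SE 0.33, edgeR adjusted p = 0.000127), *Arhgef1*, an exchange factor for RhoA, by 2.22 (SE 0.21, edgeR adjusted p = 2.03e-06), and *Dock10* and *Dock11*, exchange factors of small GTPases, by 1.70 and 1.95. *Arhgap45* fell by 1.56 and *Gm22988* by 1.6. *Sting1*, the adaptor of cytosolic DNA sensing, and *Myo1e*, a class I myosin, had 0 counts in all 20 d libraries and 52 and 80 counts in those of 10 d, and were at least 16.4-fold and 25.3-fold lower in 20 d.

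Some abundant transcripts also fell in the second 10 days alone, and these examples were chosen after their values were seen. *Ybx3*, a Y-box protein that binds mRNA, had 4174 ± 215 CPM in Cont, 4776 ± 281 CPM in 10 d and 3845 ± 103 CPM in 20 d (log2 fold change −0.31, SE 0.07, edgeR adjusted p = 0.00356 for 20 d over 10 d). *Rbm38*, an RNA-binding protein of erythroid splicing, fell by 0.43 (SE 0.09, edgeR adjusted p = 0.00225) and *Ucp2*, a carrier of the inner mitochondrial membrane, by 0.55 (SE 0.11, edgeR adjusted p = 0.00305). *Slc38a5*, a glutamine transporter, had 12, 16.1, 14.3 and 16.9 CPM in 20 d, against 27.0, 28.1, 29.4 and 26.1 CPM in 10 d. *Sptb* was also of this set, and its Cont libraries spread widely (90.6, 125, 192 and 176 CPM). So was ENSRNOG00000064743, an entry without a symbol and among the highest TPM in 20 d. It had 22598 ± 3788 CPM in Cont, 27896 ± 4823 CPM in 10 d and 16290 ± 754 CPM in 20 d. Between 10 d and 20 d its log2 fold change was −0.78 (SE 0.12, edgeR adjusted p = 0.000216).

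The 27 genes that rose in the second 10 days alone had a median log2 fold change of 0.36 between 10 d and 20 d and of −0.20 between Cont and 10 d, and the median of 20 d against Cont was 0.20. *Erbin* (ENSRNOG00000047137, chromosome 2, 34928863 to 35027852), a scaffold protein that binds the receptor ERBB2, had 34.8 ± 2.0 CPM in Cont, 30.3 ± 1.28 CPM in 10 d and 40.3 ± 3.42 CPM in 20 d (SD, n = 4 each). *Rwdd1* had 1.58 ± 0.220 CPM in Cont, 1.24 ± 0.132 CPM in 10 d and 1.92 ± 0.288 CPM in 20 d. *Pik3c2a*, a class II PI3-kinase of membrane traffic, had 3.44 ± 0.348 CPM in Cont, 2.76 ± 0.263 CPM in 10 d and 3.91 ± 0.322 CPM in 20 d. In these 3 genes the mean was lowest in 10 d. The ceramidase gene *Acer3* rose by 0.44 (SE 0.10, edgeR adjusted p = 0.00761), the kinase genes *Rps6kb1*, *Rps6ka5* and *Stk3* by 0.42, 0.37 and 0.36, the SUMO protease gene *Senp7* by 0.38 and *Depdc1* by 0.45. *Mkln1*, of the CTLH ubiquitin ligase, *Fcho2*, which acts at the start of clathrin-coated pits, *Xpo1*, an exportin of many proteins, and the deadenylase gene *Cnot6l* were chosen from the 27 after their values were seen, at 0.34, 0.31, 0.34 and 0.26.

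**Figure D5:**
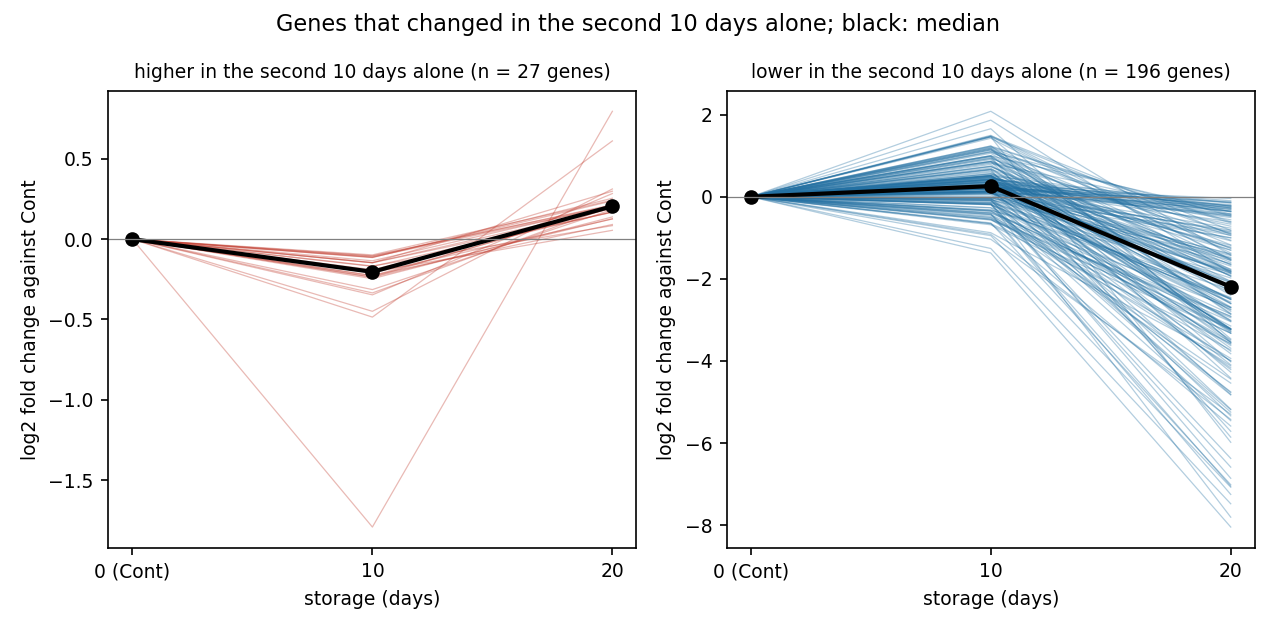
Fitted log2 fold change against Cont (y axis) at 0 (Cont), 10 and 20 days of storage (x axis) for the 27 genes that rose and the 196 genes that fell in the second 10 days alone. Thin lines are genes and the black line is their median, at −0.20 and 0.20 for the rises and at 0.26 and −2.19 for the falls, and the genes were selected on these values.

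A further set of genes was called in both intervals with opposite signs. *Cd74*, *RT1-Da*, *RT1-Db1* and *Snord17* had log2 fold changes of 0.43, 0.75, 1.47 and 1.44 between Cont and 10 d, and of −4.94, −4.36, −4.08 and −3.31 between 10 d and 20 d. In the other direction, *Wdr82*, a subunit of a histone methyltransferase complex, had −0.71 in the first interval and 0.59 in the second, *Clta*, a clathrin light chain, −0.43 and 0.45, and *Nop58*, a core protein of box C/D snoRNPs, −0.30 and 0.34. In the second interval the calls of *Wdr82* and *Clta* were lost in 7 alternatives each and that of *Nop58* in 2, all of them with library size alone and without 10 d replicate 2, and the intervals share the 10 d libraries. *Nop58* had 5.16, 5.22, 5.37 and 4.56 CPM in 20 d, against 4.24, 3.76, 3.88 and 4.14 CPM in 10 d, and its levels in Cont (5.12, 4.98, 5.03 and 4.67 CPM) were near those of 20 d.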

How the data were processed

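RNA of purified RBCs was sequenced by the authors after rRNA depletion, and reads were assigned to the genes of mRatBN7.2 (annotation release 105, CLC Genomics). The deposited table gives counts per gene, without normalization. The authors also deposited RPKM and TPM, computed from those counts; here RPKM served only to obtain exon lengths and TPM only to compare levels between genes. The 12 columns of CPM were not used, nor the 24 columns of the authors' own comparisons, which hold fold changes and p-values with their corrections. Whether the counting used strand is not given in the sources used here, so that overlapping, antisense and near-identical genes may share counts.

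Counts were filtered with filterByExpr, scaled by TMM and fitted over all 12 libraries with the quasi-likelihood test of edgeR 4.0.16 (R 4.3.3), with Benjamini-Hochberg adjustment over 8382 genes and a threshold of 0.05. Contrasts were 20 d against 10 d, 10 d against Cont and the difference of the intervals. Scripts were tested on simulated data. Genes named were drawn from the following sets, and not all of their members are printed. The first are the 15 largest rises and falls with a symbol, at least 1 CPM and no overlap. Others are the 10 largest each of the second 10 days alone and up to 4 each that turned. The last are the 3 of smallest adjusted p in each of 40 lists and the 10 of highest TPM. Every other gene named was chosen after its values were seen: *Ciita*, *Pou2af1*, *Tnfrsf13c*, *Ms4a1*, *Gp1ba*, *Ptprc*, *Fosl1*, *Nr4a1*, *Fos*, *Jund*, *Tnfaip3*, *Ank1*, *Epb41*, *Epb42*, *Tpm3*, *Bcl11a*, *Sox6*, *U3_22*, *Metazoa_SRP_2*, *Rbm39*, *Hnrnpm*, *Tra2b*, *Ash1l*, *Kdm5a*, *Kdm6a*, *Xpo7*, *Sting1*, *Myo1e*, *Ybx3*, *Rbm38*, *Ucp2*, *Mkln1*, *Fcho2*, *Xpo1*, *Cnot6l* and those of the closing observations. Members and lists were chosen with earlier results of these data known. Alternatives were other scalings, filters and tests (DESeq2 1.42.0, likelihood ratio), a replicate block, the 8 libraries alone and each library left out.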

Additional observations from a re-analysis of the deposited data

Results flagged for a closer look

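Of 116 groups of 4 libraries examined, 8 held 1 library far from the other 3, and chance gives about 1 in 20. In 10 d these were *Atp5me* at 1.42 CPM, *Nbn* at 1.52 CPM, *Cmtm4* at 1.23 CPM, *Arhgef1* at 1.32 CPM and *Stk3* at 7.13 CPM. In 20 d they were *Dis3l* at 1.36 CPM, *Fcgr2a_2* at 0.481 CPM and *Stk3* at 10.1 CPM. No group of *Cd74*, *Ighm* or *Timm9* was among them.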

How the results depend on the processing

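Against 283 rises and 1055 falls at 20 d and 27 rises and 196 falls in the second 10 days alone, the counts moved by more than 1.5 times as follows, and the cause was not tested. Rises at 20 d numbered 68 with library size alone, 508 with the size factors of DESeq2, 556 with TMM without the 4 most abundant genes, 505 without a filter, 565 with DESeq2, 435 with the 8 libraries alone and 120 to 532 with 1 library left out. Falls numbered 455 when at least 1 CPM in 4 libraries was required, which tests 3817 genes. Rises in the second 10 days alone numbered 1 with library size alone, 106 with the size factors of DESeq2, 146 with TMM without the 4 genes, 55 without a filter, 53 at 1 CPM, 170 with DESeq2 and 2 to 57 with 1 library left out. Falls in that interval numbered 112 with library size alone, 81 at 1 CPM, 120 when the first interval also had to be under 0.5 and 112 to 208 with 1 library left out. With the replicate block, 508 genes rose and 1292 fell at 20 d, and 101 rose and 251 fell in the second 10 days alone. The conditions share rats by design, but whether a number marks a rat is not given. Between 20 d and 10 d, same-numbered libraries correlated at 0.0439 to 0.128, not all over 0.1. There 8 of 8 libraries correlated best with their own number, a hint from the data that it does. Against Cont this did not always hold. Replicate 4 of 10 d and of 20 d correlated more with Cont replicate 1 (0.0603 and 0.0531) than with Cont replicate 4 (0.0466 and 0.0167). Replicate 2 of 10 d correlated at 0.0906 with Cont replicate 3 and at 0.0881 with Cont replicate 2. The other 20 d and 10 d libraries correlated best with the Cont library of their own number. The 283 rises and 1055 falls kept their direction in every setting where they were tested. All settings reuse these libraries, so that this is no independent support. Of 45 genes in the sets for the largest or the second-interval changes, 30 kept their call in every setting. Genes of under about 0.181 CPM had too few counts to show small changes.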

Other observations

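Cohesin, the ring complex that holds chromosomes in loops, was looked at after its values were seen. *Stag1*, *Stag2*, *Esco1*, *Smc3* and *Wapl* were higher in 20 d than in 10 d, by 0.21, 0.23, 0.31, 0.31 and 0.32 log2 units, while *Mau2* (−0.18), *Pds5a* (0.01), *Rad21* (0.03), *Pds5b* (0.04), *Smc1a* (0.05) and *Nipbl* (0.13) did not pass the edgeR test. *Smc3* had 7.65, 7.21, 9.20 and 7.21 CPM in 20 d, against 6.71, 6.06, 6.80 and 5.72 CPM in 10 d. *Ndufv2*, a subunit of complex I, had 0.932, 1.12, 0.868 and 0.510 CPM in 20 d, against 0.469, 0.516, 0.398 and 0.524 CPM in 10 d (log2 fold change 0.84, SE 0.24, edgeR adjusted p = 0.0244), and its groups overlapped. *Cycs*, cytochrome c, rose by 0.50 log2 units (SE 0.14, edgeR adjusted p = 0.0248).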
